A study of Homo sapiens with 6 samples.

Results

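The insulin-like growth factor (IGF) axis is described here by a set of 10 genes, made up of the ligand IGF2, the binding proteins IGFBP2, IGFBP3, IGFBP4 and IGFBP5, the receptors IGF1R, INSR and IGF2R, and the adaptors IRS1 and IRS2. They were chosen by gene symbol, and 10 of 10 were found among the 21301 genes of the RNA-seq table. The cells were SH-SY5Y, a human neuroblastoma line, cultured in advanced DMEM/F-12 with fetal bovine serum. One group was treated for 72 h with 10 nM of an siRNA against PSF (siPSF), and the other with a control siRNA (siControl) for the same time. Each group had 3 libraries, which the study calls biological triplicates. A single siRNA sequence against PSF was used, in a single cell line. PSF, the product of SFPQ, is a nuclear RNA-binding protein of paraspeckles that acts in splicing and transcription.

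IGF2 is a secreted growth factor, and IGF1R is the receptor tyrosine kinase through which it drives growth and survival. INSR, the insulin receptor, is the close relative of IGF1R. IGF2R has no kinase domain, takes up IGF2 for breakdown and carries lysosomal enzymes that bear mannose 6-phosphate. The IGFBPs bind IGFs outside the cell and hold them away from or near the receptor. IRS1 and IRS2 are docking proteins that link both kinase receptors to PI3K and AKT. Neuroblastoma cells are known for using IGF2 as a growth factor of their own. The culture medium is formulated with insulin and serum holds IGFs, so ligand was also supplied from outside the cells.

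The libraries held between 101540520 and 132420931 counts, and no replicates agreed within sampling noise. The level of SFPQ was 372, 356 and 401 CPM (counts scaled to library size with TMM) in siControl and 209, 193 and 165 CPM in siPSF, which is 50.2% of the siControl mean (log2 fold change -0.99 with a standard error of 0.10 and an adjusted p of 9.5e-05 by edgeR). All 11 adrenergic neuroblastoma markers were measured, and their summed level was 5367 to 6138 CPM in siControl and 4671 to 5270 CPM in siPSF, although TH, the gene for tyrosine hydroxylase, stayed between 0.172 and 0.839 CPM. Much of that difference in sums lay in DBH, the dopamine beta-hydroxylase gene, at means of 1738 and 1085 CPM. The median log2 fold change of the 11 was 0.00, with DLK1, TFAP2B, DBH and TH called lower, GATA3 called higher and 6 not called. The called share was 45.5%, beside 14.9% of all genes tested. In the 6 fits that each left out a library, DLK1, TFAP2B and DBH stayed called in 6, TH in 4 and GATA3 in 0. Of 12 mesenchymal neuroblastoma markers, 10 were measured, with sums of 398 to 420 CPM in siControl and 353 to 391 CPM in siPSF. Their median log2 fold change was 0.27. FN1 and NOTCH2 were called lower (-0.60 and -0.47) and 0 were called higher, a called share of 20%. PRRX1 and MEOX1 were not analysed here. In bulk RNA, fewer cells of a type and less RNA per cell cannot be told apart.

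After siPSF, 3 of the 10 genes fell and 0 rose, taking as called a Benjamini-Hochberg adjusted p under 0.05 over the 19694 genes fitted with edgeR. The genes that fell were IRS2, INSR and IGF1R, each to between 64.1% and 68.8% of the siControl level. Of all genes tested, 14.9% were called, with 8.27% lower and 6.65% higher. The median log2 fold change of the 10 genes was -0.24, beside 0.01 over all genes tested. Both kinase receptors and the more abundant adaptor were among the called genes, while the ligand, the 4 binding proteins, IGF2R and IRS1 were not. IGF1R, INSR, IGF2R and IRS2, 4 of the 10, had no siPSF library as high as the lowest siControl library, as had 17.8% of all tested genes. In the other 6 the groups overlapped.

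**Figure D1:**
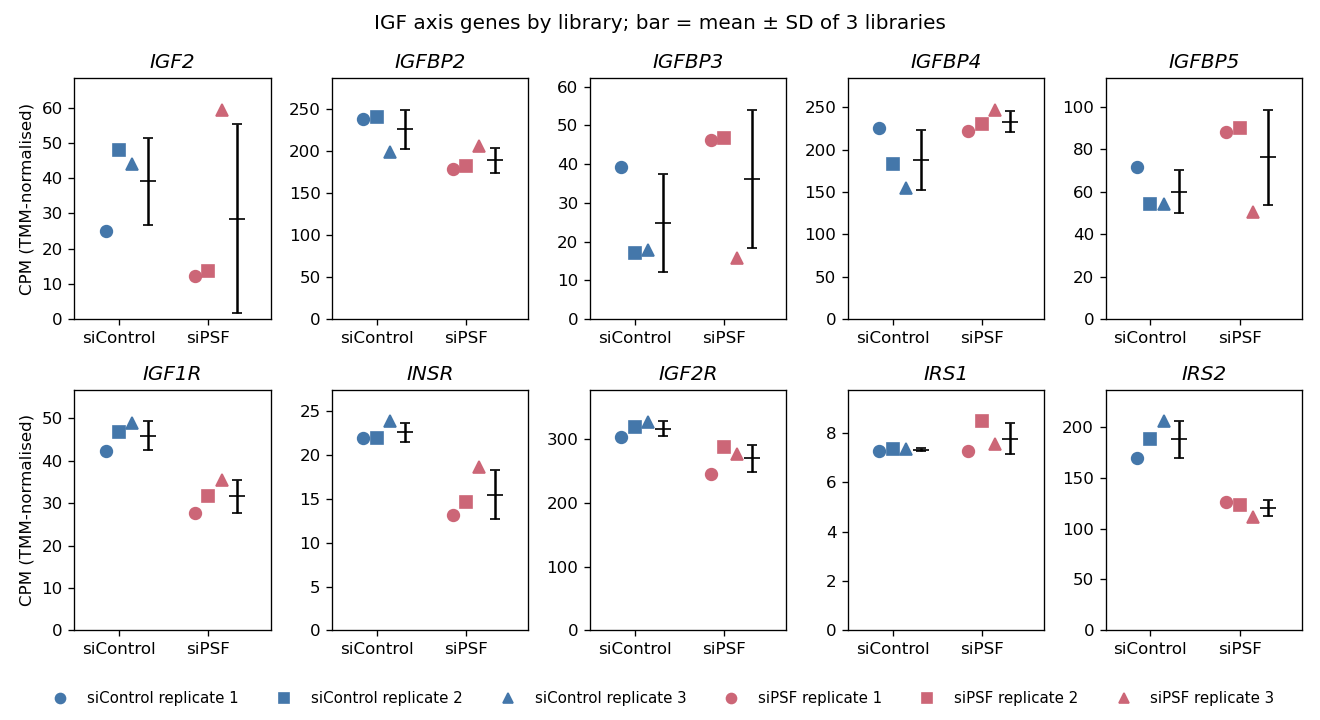
CPM (scaled by TMM, linear axis from 0) of each of the 10 IGF axis genes in the 3 siControl libraries (blue) and the 3 siPSF libraries (red), with symbols for the replicate and a bar for the mean ± SD. IRS2, IGF1R, INSR and IGF2R show no overlap between the groups, and siPSF replicate 3 stands apart from the other siPSF libraries in IGF2, IGFBP3 and IGFBP5.

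Levels per exon length were compared with the deposited FPKM values. In siControl, IGFBP2 was the most abundant of the 10 genes, at 149 ± 12.2 FPKM (SD, n = 3), followed by IGFBP4 at 79.2 ± 13.8 FPKM. IRS2 (19.2 to 24.1 FPKM) and IGF2R (19.9 to 22.3 FPKM) came next and overlapped. IGFBP5, IGFBP3 and IGF2, at 7.98 to 10.6, 5.98 to 13.8 and 4.31 to 8.45 FPKM, overlapped one with the next. IGF1R (3.19 to 3.87 FPKM), INSR (2.13 to 2.42 FPKM) and IRS1 (0.764 to 0.804 FPKM) were lowest and lay apart from each other. After siPSF the order of the means was the same apart from 2 exchanges of neighbors. IRS2, at 11.98 to 13.8 FPKM, then lay below IGF2R, at 15.6 to 17.9 FPKM, with no overlap, and the mean of IGFBP3 lay above that of IGFBP5 with overlapping libraries. The siPSF libraries of IGF2 (2.14 to 9.67 FPKM) and IGF1R (2.02 to 2.59 FPKM) overlapped too. As a sum, the binding protein transcripts exceeded those of the ligand in every library. IGFBP2 to IGFBP5 summed to between 217 and 274 FPKM, and IGF2 was at most 9.67 FPKM in any library. IGFBP2 and IGFBP4 made up 87.7% to 94.8% of that sum. Taken singly, IGFBP3 lay below IGF2 in siControl replicates 2 and 3 and siPSF replicate 3. IGFBP5 lay below IGF2 in siControl replicate 2 and siPSF replicate 3.

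**Figure D2:**
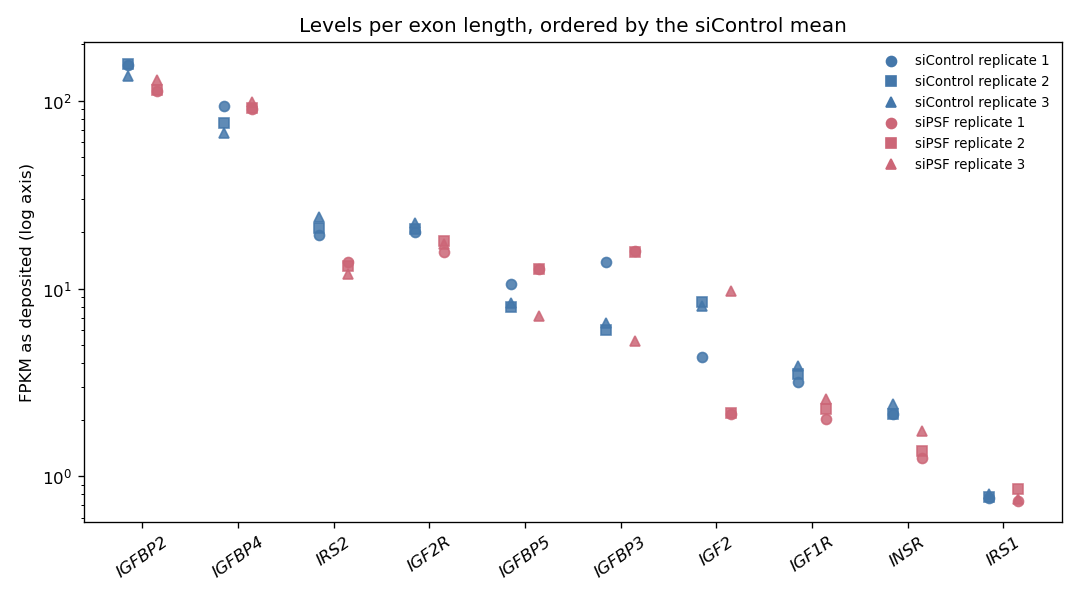
Deposited FPKM (log axis) of the 10 genes in each library, ordered by the siControl mean, with blue symbols for siControl and red symbols for siPSF. IGFBP2 and IGFBP4 are highest and IRS1 lowest in both groups, and the red symbols of IRS2 lie below those of IGF2R.

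The promoters of the 3 genes that fell are shown here because these were the called members. Their richness in G and C is shared by most of the 10 genes. Each window runs from 250 bases before to 50 bases after the start given by RefSeq (GRCh38.p14), read 5′ to 3′ on the strand of the gene, and capitals mark GC boxes, the letters GGGCGG on either strand. The IGF1R window is chr15:98648289-98648588 on the plus strand, the INSR window chr19:7294365-7294664 on the minus strand and the IRS2 window chr13:109786534-109786833 on the minus strand.
IGF1R: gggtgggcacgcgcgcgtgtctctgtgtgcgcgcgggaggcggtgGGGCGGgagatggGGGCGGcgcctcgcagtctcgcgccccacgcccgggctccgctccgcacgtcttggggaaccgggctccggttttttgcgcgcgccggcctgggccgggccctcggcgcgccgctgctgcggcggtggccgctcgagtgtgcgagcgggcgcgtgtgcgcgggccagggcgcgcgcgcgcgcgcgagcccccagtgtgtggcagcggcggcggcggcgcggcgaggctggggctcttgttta
INSR: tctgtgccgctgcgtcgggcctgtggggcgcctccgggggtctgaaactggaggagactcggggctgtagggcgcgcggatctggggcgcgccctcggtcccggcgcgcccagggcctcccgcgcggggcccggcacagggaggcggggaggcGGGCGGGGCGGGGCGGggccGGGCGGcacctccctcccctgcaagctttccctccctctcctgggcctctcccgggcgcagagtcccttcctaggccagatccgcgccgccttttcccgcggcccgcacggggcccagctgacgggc
IRS2: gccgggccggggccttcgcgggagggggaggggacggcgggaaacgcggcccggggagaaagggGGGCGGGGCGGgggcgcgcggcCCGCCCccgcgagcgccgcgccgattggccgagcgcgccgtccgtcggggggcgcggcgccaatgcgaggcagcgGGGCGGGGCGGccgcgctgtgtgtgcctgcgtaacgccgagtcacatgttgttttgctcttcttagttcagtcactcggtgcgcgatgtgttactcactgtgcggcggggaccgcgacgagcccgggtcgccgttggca
The windows held 2 (IGF1R), 4 (INSR) and 5 (IRS2) GC boxes, counting matches that share bases, and their G and C content was 79.7%, 78.3% and 75.7%, beside a median of 58.7% over all promoters of the table. A GC box was found in 45.0% of the 35116 promoters, and in 9 of the 11 windows listed for 9 of the 10 genes. IGF2 has no window in the table, and IGFBP2 has 3. Some members that were not called had the same features, and others did not. IRS1 held 4 GC boxes at 79.3% G and C, IGF2R held 6, the highest number among these windows, at 78.7%, and IGFBP3 and IGFBP4 held 2 each at 74.7% and 74.0%. IGFBP5 held 0 at 59.0%, and the 3 windows of IGFBP2 held 1, 1 and 0 at 55.3%, 70.0% and 56.7%. The TATA box TATAAA (11.5% of promoters) was found in 1 of the 11 windows, that of IGFBP4, and the E-box CACGTG (7.3% of promoters) in 2, with 3 matches in IGF2R and 1 in IRS1. The forkhead core TGTTTA (12.3% of promoters), searched because IRS2 and INSR are known targets of FOXO factors, was found on either strand in 1 window, that of IGF1R.

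IGF1R (gene ID 3480) spans 316 kb of chromosome 15 of GRCh38 from 98648539 to 98964530. It was at 42.2, 46.8 and 48.8 CPM in siControl and 27.6, 31.8 and 35.5 CPM in siPSF. The highest siPSF library lay below the lowest siControl library. The means were 46.0 ± 3.39 and 31.6 ± 3.92 CPM (SD, n = 3 each). On the log2 scale the fitted change was -0.54 ± 0.11 (standard error, edgeR's adjusted p = 0.0060), and IGF1R stayed called in 6 of 6 fits on 5 libraries, at -0.63 to -0.45.

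INSR (gene ID 3643) spans 182 kb of chromosome 19 from 7112265 to 7294414. It was at 22.0, 21.9 and 23.9 CPM in siControl and 13.2, 14.6 and 18.6 CPM in siPSF, again without overlap. The siPSF libraries were more spread than the siControl libraries, and siPSF replicate 3 was the highest of them, as it was for IGF1R. The means were 22.6 ± 1.12 and 15.5 ± 2.81 CPM (SD, n = 3 each). The fitted log2 change was -0.54 ± 0.13 (standard error, edgeR's adjusted p = 0.013). The call was lost without siControl replicate 3 (log2 fold change -0.51, adjusted p = 0.062) and without siPSF replicate 1 (-0.44, adjusted p = 0.058). The ratio of IGF1R to INSR, both in FPKM, was 1.48, 1.65 and 1.60 in siControl and 1.62, 1.68 and 1.49 in siPSF, so the groups overlapped in the balance of the 2 receptors.

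IRS2 (gene ID 8660; chromosome 13 from 109752695 to 109786583) is the more abundant of the 2 adaptors. It was at 170, 188 and 206 CPM in siControl and 126, 123 and 111 CPM in siPSF. Every siPSF library lay well below the siControl libraries, and unlike IGF1R and INSR, IRS2 was lowest in siPSF replicate 3. The means were 188 ± 17.9 and 120.2 ± 7.83 CPM (SD, n = 3 each). The fitted log2 change was -0.64 ± 0.09 (standard error, edgeR's adjusted p = 8.9e-04), and IRS2 too stayed called in 6 of 6 fits on 5 libraries (-0.71 to -0.58). IRS1 (gene ID 3667; chromosome 2 from 226731312 to 226799820) was at 7.26, 7.36 and 7.34 CPM in siControl and 7.27, 8.48 and 7.55 CPM in siPSF. Its log2 fold change was 0.08, with a 95% interval of -0.17 to 0.34 (edgeR's adjusted p = 0.67), and -0.07 with limma on FPKM rescaled to a common sum. The ratio of IRS2 to IRS1, both in FPKM, was 25.1, 27.3 and 30.0 in siControl and 18.6, 15.6 and 15.8 in siPSF, without overlap. This ratio was not tested. Over the 6 libraries and among 10496 other genes of at least 10 CPM, the log2 CPM of IRS2 was most like that of EMSY, SLC8A3 and KALRN (Pearson's r = 0.999, 0.997 and 0.997), a likeness over libraries that carry the difference between the groups.

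IGF2R (gene ID 3482) spans 142 kb of chromosome 6 from 159969082 to 160111504. It was at 304, 319 and 327 CPM in siControl and 246, 288 and 277 CPM in siPSF. The groups did not overlap, but the difference was small. The log2 fold change was -0.23 (standard error 0.09, 95% interval -0.42 to -0.04), which did not pass the adjustment (edgeR's adjusted p = 0.097). IGF1R, INSR and IGF2R are each longer than 100 kb, and the 2770 protein-coding genes of that length had a median log2 fold change of -0.17, with 25.1% called lower, beside 0.05 and 4.64% in the 11648 shorter ones. IRS2, at 33.9 kb, is a shorter gene. The part of gene length in the values of the receptors and of IRS2 was not tested.

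**Figure D3:**
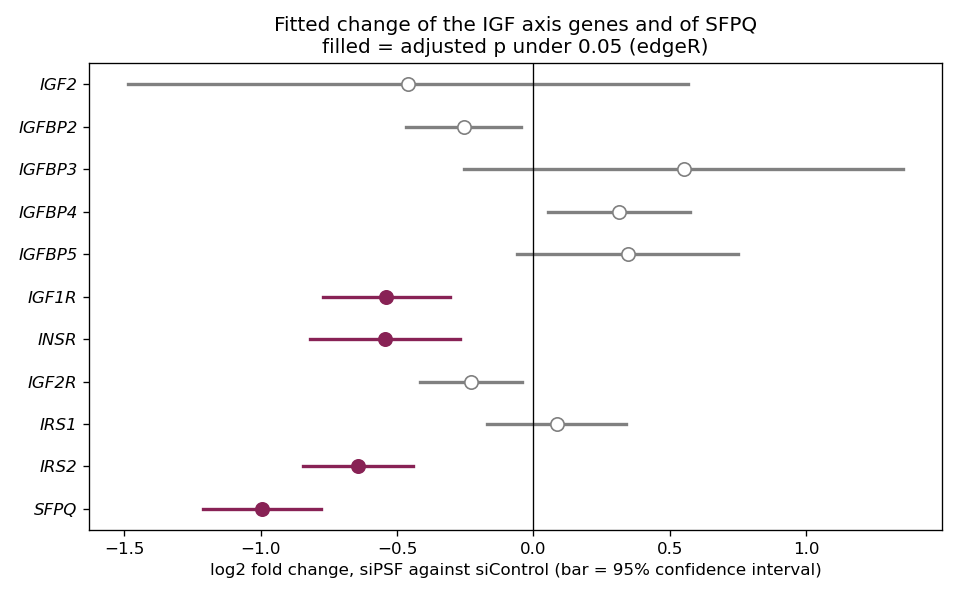
Log2 fold change, siPSF against siControl, of the 10 IGF axis genes and of SFPQ from edgeR's fit, with bars for the 95% confidence interval and filled symbols for an adjusted p under 0.05. IGF1R, INSR and IRS2 lie between -0.64 and -0.54, and the intervals of IGF2 and IGFBP3 are the widest.

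IGF2 (gene ID 3481) lies on chromosome 11 from 2129117 to 2149566. It was at 25.1, 48.0 and 44.2 CPM in siControl and 12.3, 13.6 and 59.5 CPM in siPSF. SiPSF replicates 1 and 2 lay below all siControl libraries and siPSF replicate 3 lay above them all, so the groups overlapped. The means were 39.1 ± 12.2 and 28.5 ± 26.9 CPM (SD, n = 3 each), and the log2 fold change was -0.46 with a 95% interval from -1.49 to 0.57 (edgeR's adjusted p = 0.56). Without siPSF replicate 3 the log2 fold change was -1.59 (edgeR's adjusted p = 7.0e-05), and without siPSF replicate 1 it was -0.10 (adjusted p = 0.91), and IGF2 was called in 1 of the 6 fits on 5 libraries. In the 8 alternatives with every library it ran from -0.89 with limma on rescaled FPKM to -0.46, with 0 calls. With a replicate block it was -0.81 (edgeR's adjusted p = 0.16). The spread within groups ranked IGF2 as the 7th most variable of 11908 genes of at least 5 CPM, with a within-group SD of 0.97 on the log2 scale beside a median of 0.12. The counts of the 10 genes ran from 744 to 42571 per library.

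H19, the long noncoding RNA whose imprinted gene lies beside IGF2 and shares its control region, was high and low in the same libraries. H19 (chromosome 11 from 1995176 to 2001266, 128 kb from IGF2) was at 519, 1252 and 1068 CPM in siControl and 275, 291 and 1050 CPM in siPSF. It was low where IGF2 was low, in siControl replicate 1 and siPSF replicates 1 and 2, and ranked 8th of the same 11908 genes by its spread within groups. Its log2 fold change was -0.81 (95% interval -1.77 to 0.15, edgeR's adjusted p = 0.24), and over the 6 fits on 5 libraries it ran from -1.74 without siPSF replicate 3 (adjusted p = 1.7e-04), where alone it was called, to -0.50 without siPSF replicate 1 (adjusted p = 0.49). With a replicate block it was -1.01 (edgeR's adjusted p = 0.071). The ratio of H19 CPM to IGF2 CPM stayed between 17.7 and 26.1, while IGF2 itself varied 4.84-fold and H19 4.54-fold over the 6 libraries. IGF2-AS, which overlaps IGF2 on the other strand, was at 1.05, 1.76 and 1.38 CPM in siControl and 0.396, 0.663 and 1.45 CPM in siPSF, and because the use of strand in counting is not given in the sources used here, its reads and those of IGF2 cannot be told apart. INS-IGF2, a readthrough gene that covers IGF2, was not analysed here.

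CDKN1C, KCNQ1OT1 and MRPL23 of the 11p15 list varied less between libraries than IGF2. CDKN1C, an imprinted inhibitor of the cell cycle, was at 16.6 to 21.3 CPM in siControl and 17.0 to 20.4 CPM in siPSF, KCNQ1OT1, an imprinted noncoding RNA, at 2.51 to 3.89 and 3.37 to 3.99 CPM, and MRPL23, a mitochondrial ribosomal protein gene, at 53.4 to 66.6 and 67.6 to 71.7 CPM. TSPAN32 was at 0.382 to 0.397 CPM in siControl and 0.284 to 1.32 CPM in siPSF. TH was the only gene of the 8 tested in that list that was called (log2 fold change -1.20, edgeR's adjusted p = 0.025), from a level under 1 CPM. That is 12.5% of the list, beside 14.9% of all genes tested. The list also held IRAIN, an antisense transcript of IGF1R, at 0.0635 to 0.210 CPM. Of the proteins that bind IGF2 mRNA, IGF2BP3 was the abundant one, at 53.8 to 67.0 CPM in siControl and 51.6 to 67.7 CPM in siPSF, and IGF2BP1 and IGF2BP2 were measured at much lower levels, with 0 of the 3 called by edgeR.

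IGFBP3 (gene ID 3486; chromosome 7 from 45912245 to 45921272), the main carrier of IGFs in serum, was at 39.3, 17.1 and 17.9 CPM in siControl and 46.3, 46.7 and 15.7 CPM in siPSF. It was high in the libraries in which IGF2 and H19 were low, and low in the others. Its log2 fold change was 0.55 (95% interval -0.25 to 1.36, edgeR's adjusted p = 0.35), and it was called in 1 of the 6 fits on 5 libraries, without siPSF replicate 3 (0.91, adjusted p = 0.017). The other fits ran from 0.33 without siPSF replicate 2 (adjusted p = 0.62) to 1.05 without siControl replicate 1 (adjusted p = 0.056). The ratio of IGF2 to IGFBP3, both in FPKM, was 0.311, 1.41 and 1.23 in siControl and 0.136, 0.138 and 1.84 in siPSF. IGFBP3 was the 13th of the 11908 genes by its spread within groups.

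IGFBP5 (gene ID 3488; chromosome 2 from 216672105 to 216695549), a binding protein known from neuronal and muscle cells, was at 71.7, 54.3 and 54.3 CPM in siControl and 88.3, 90.2 and 50.5 CPM in siPSF. The same libraries were high as for IGFBP3, with smaller differences, and IGFBP5 ranked 151st by its spread within groups. The log2 fold change was 0.34 (95% interval -0.06 to 0.75, edgeR's adjusted p = 0.24), with 0.57 without siPSF replicate 3 (adjusted p = 0.0028), the 1 call among the 6 fits on 5 libraries, and 0.21 without siPSF replicate 2 (adjusted p = 0.51). The mean log2 CPM of the 10 mesenchymal markers was 3.10, 2.85 and 2.89 in siControl and 3.14, 3.22 and 2.79 in siPSF, so this mean was also higher in siControl replicate 1 and siPSF replicates 1 and 2. The summed CPM of the same markers did not follow that order, since siPSF replicates 1 and 2, at 391 and 378 CPM, lay below all siControl libraries. The part of these markers in the values of IGFBP3 and IGFBP5 was not tested.

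**Figure D4:**
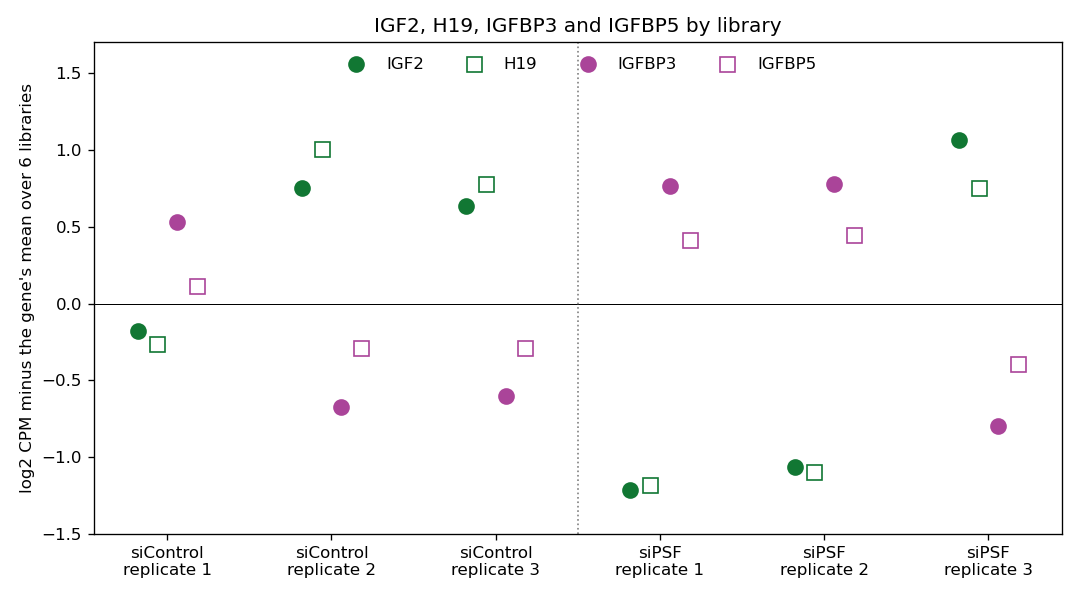
Log2 CPM of IGF2, H19, IGFBP3 and IGFBP5 in each library, as the difference from the mean of that gene over the 6 libraries. In siControl replicate 1 and siPSF replicates 1 and 2 the IGF2 and H19 symbols lie below 0 and the IGFBP3 and IGFBP5 symbols above it, and in the other 3 libraries the order is turned.

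IGFBP2 (gene ID 3485; chromosome 2 from 216632828 to 216664436), a binding protein abundant in fetal and neural tissue, was at 239, 240.8 and 199 CPM in siControl and 179, 183 and 206 CPM in siPSF. Only siPSF replicate 3 reached into the siControl range. The log2 fold change was -0.26 (95% interval -0.47 to -0.04, edgeR's adjusted p = 0.098), and the gene was called lower without siPSF replicate 3 (adjusted p = 0.039), without siControl replicate 3 (adjusted p = 0.038) by limma on FPKM (-0.33, adjusted p = 0.049) and by limma after rescaling FPKM (-0.44, adjusted p = 0.013). IGFBP4 (gene ID 3487; chromosome 17 from 40443450 to 40457725), an inhibitor of IGF action that the protease PAPPA cleaves, was at 226, 183 and 155 CPM in siControl and 223, 230.0 and 247 CPM in siPSF. SiControl replicate 1 was the library that made the groups overlap. The log2 fold change was 0.31 (95% interval 0.05 to 0.57, edgeR's adjusted p = 0.10), with 0.46 without siControl replicate 1 (adjusted p = 0.015) and 0.19 without siControl replicate 3 (adjusted p = 0.28). IGFBP4 was called in 1 of 6 fits on 5 libraries and in 0 of the 8 alternatives with every library. The ratio of IGFBP2 to IGFBP4, both in FPKM, was 1.65, 2.05 and 2.01 in siControl and 1.26, 1.24 and 1.31 in siPSF, so it was lower in each siPSF library than in any siControl library. Neither gene was called in the main fit, and the ratio was not tested. Among all genes tested, 34.4% had CPM ranges that did not overlap between the groups. That share is for single genes, and the share among ratios of 2 genes was not computed.

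To place the 10 genes in their pathway, 6 lists with 96 tested genes were read from the same fit. Of these, 5 were called higher and 12 lower, which is 17.7% beside 14.9% of all genes tested, and the median log2 fold change was 0.01. The number of calls was 7 without siControl replicate 2, 9 without siControl replicate 3 and 10 without siPSF replicate 1, and 6 of the 17 calls held in all 6 fits that each left out a library, those of INSRR, GAB2, SHC3, SPRY2, NF1 and DUSP6.

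Close to the receptors, 20 genes were tested, with 4 lower and 1 higher, beside 8.27% lower and 6.65% higher over all genes tested. INSRR (gene ID 3645), the third member of the insulin receptor family and a sensor of alkaline pH, was at 46.8, 53.2 and 49.6 CPM in siControl and 22.4, 23.6 and 25.7 CPM in siPSF. At -1.06 ± 0.10 on the log2 scale (standard error, adjusted p of 5.0e-05 by edgeR), it had a larger fitted fall than IGF1R or INSR. GAB2, a docking protein that recruits PI3K and SHP2, fell from 307 ± 15.1 to 191 ± 11.98 CPM (SD, n = 3 each; log2 fold change -0.69, edgeR's adjusted p = 3.4e-04). SHC3 and SHC2, the neuronal SHC adaptors that lead to RAS, had log2 fold changes of -0.85 and -0.38 (edgeR's adjusted p = 0.0014 and 0.015). The widely expressed SHC1 (271 to 298 CPM in siControl and 263 to 339 CPM in siPSF) and GRB2 (193 to 209 and 211 to 228 CPM) were not called. SOCS1, a feedback inhibitor of cytokine and insulin signaling, rose from 0.192 to 0.460 CPM. The called genes span 19.1 kb (INSRR), 203 kb (GAB2), 173 kb (SHC3), 44.4 kb (SHC2) and 1.79 kb (SOCS1). The part of gene length in their values was not tested.

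Among the ligands and extracellular regulators, 8 of 12 genes were tested, with 2 higher and 1 lower. The called share was 37.5%, beside 14.9% of all genes tested. IGF1, INS, IGFBP1 and STC1 were not analysed here. IGFBPL1, a secreted protein related to the IGFBPs, fell from 180.1 ± 16.8 to 134 ± 14.0 CPM (SD, n = 3 each; log2 fold change -0.43, edgeR's adjusted p = 0.013). IGFBP7 and IGFALS, the latter a partner of IGFBP3 in serum, rose from very low levels, of 0.326 and 0.119 CPM, to 0.859 and 0.378 CPM. STC2, which inhibits PAPPA proteases, was at 208 to 230.0 CPM in siControl and 221 to 245 CPM in siPSF and was not called, and PAPPA was at 0.355 to 0.773 CPM over the 6 libraries.

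Downstream, the 34 genes of the PI3K, AKT and mTOR pathway were mostly not called, with 1 higher, 2 lower and a median log2 fold change of -0.01. The called share was 8.82%, beside 14.9% of all genes tested. PIK3R2, a regulatory subunit of PI3K, rose by a log2 fold change of 0.33 (edgeR's adjusted p = 0.027), and MTOR and FOXO1 fell by 0.28 and 0.77 (edgeR's adjusted p = 0.035 and 0.021), FOXO1 from a level of 1.80 CPM. In the RAS and MAPK branch 4 of 20 genes were lower and 0 higher, beside 8.27% lower and 6.65% higher over all genes tested. SPRY2 and DUSP6, feedback inhibitors that ERK signaling induces, had log2 fold changes of -0.97 and -0.52 (edgeR's adjusted p = 1.2e-04 and 0.0093), DUSP5 had one of -0.82 (adjusted p = 0.027) and NF1, a RAS GTPase-activating protein, one of -0.50 (adjusted p = 0.0067). SPRY2 was at 96.4, 112 and 125 CPM in siControl and 56.1, 54.1 and 59.6 CPM in siPSF. PIK3R2 was called in 1 of the 6 fits on 5 libraries, and MTOR, FOXO1 and DUSP5 in 3 each. Of the called genes named here, NF1 (283 kb), MTOR (156 kb) and FOXO1 (111 kb) are longer than 100 kb. PIK3R2, SPRY2, DUSP6 and DUSP5 span 17.4, 5.15, 5.27 and 13.6 kb. The part of gene length in these values was not tested.

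Of 12 tested transcripts known to be induced by FOXO factors, apart from IRS2 and INSR, SESN1 was higher and SESN3 lower (log2 fold changes 0.51 and -0.53, edgeR's adjusted p = 0.023 and 0.042), and the median was 0.16. Both are sestrins, which restrain mTOR complex activity, and they went in opposite directions, with SESN1 called in 1 and SESN3 in 2 of the 6 fits on 5 libraries. The called share of the 12 was 16.7%, beside 14.9% of all genes tested. Of 16 tested genes of mannose 6-phosphate sorting, the pathway that IGF2R serves, GAA, the lysosomal alpha-glucosidase, rose (log2 fold change 0.35, edgeR's adjusted p = 0.022), and it was called in 3 of the 6 fits on 5 libraries. M6PR, the other mannose 6-phosphate receptor, was at 103 to 121 CPM in siControl and 124 to 132 CPM in siPSF, and the fitted log2 difference was 0.16 (edgeR's adjusted p = 0.24).

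**Figure D5:**
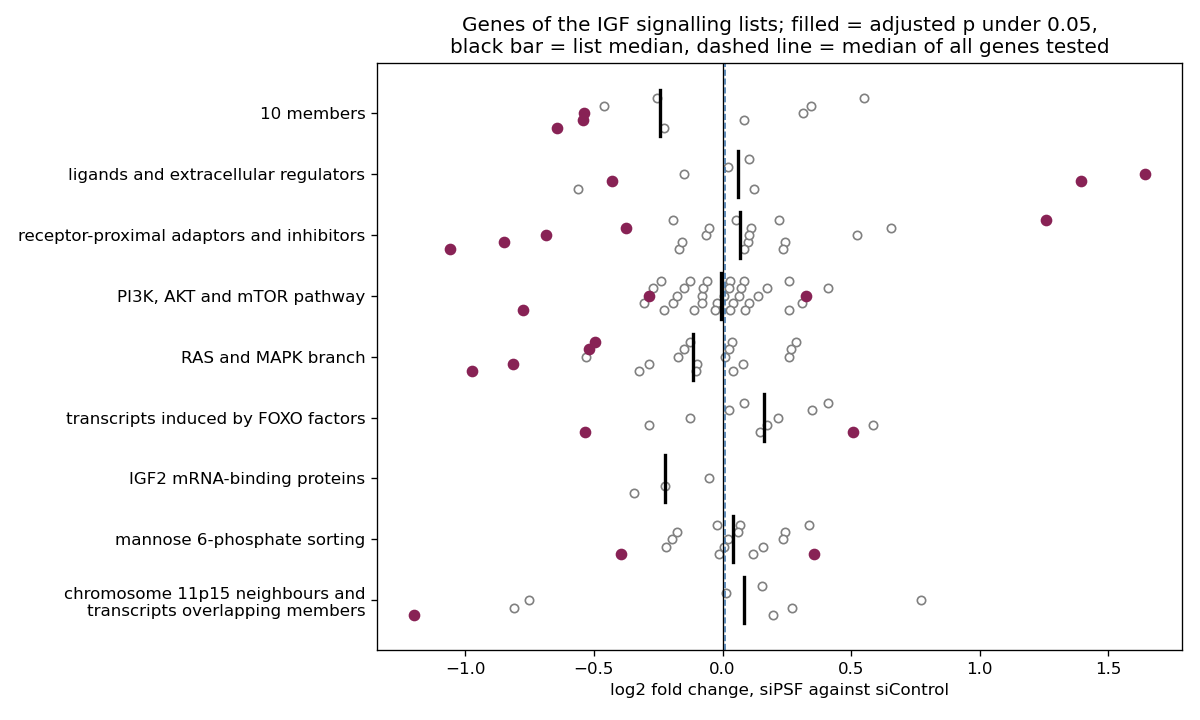
Log2 fold change, siPSF against siControl, of each tested gene in the set of 10 and in 8 lists, with filled symbols for an adjusted p under 0.05 (edgeR), a black bar for the median of the list and a dashed line for the median of all genes tested. The called genes of the adaptor list and the RAS and MAPK branch lie mostly on the left, and the PI3K, AKT and mTOR genes gather around 0.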

How the data were processed

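RNA-seq of 6 SH-SY5Y libraries was analysed, 3 of siControl and 3 of siPSF, grouped by the sample titles, and 0 per-sample columns were left unused. The authors deposited raw read counts and FPKM values for each gene in each library. To make them, the paper's methods name poly(A) selection, rRNA removal with Bowtie 2, mapping to hg38 with TopHat and counting on RefSeq, whereas the submitters' processing notes name Trimmomatic, HISAT2 2.1.0, StringTie 2.1.3b and GRCh38. Which of these made the table was not settled, and the kit is given once as unstranded and once as stranded. FPKM values, which the authors scaled by exon length and mapped reads, were used for levels between genes and for alternatives. The smallest deposited count is 1, so genes without a read in a library were not analysed here.

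Counts were filtered with filterByExpr (19694 of 21301 genes left), scaled by TMM (factors 0.964 to 1.053). All genes entered 1 quasi-likelihood fit in edgeR (glmQLFit and glmQLFTest), p-values were adjusted by Benjamini-Hochberg, and 0.05 was the threshold of a call. The tools were DESeq2 1.42.0, limma 3.58.1 and edgeR 4.0.16 under R 4.3.3. Fits with each tool were also run on simulated counts, drawn for each gene independently. Such counts hold no pattern that genes share within a library, so they cannot speak to one. The common biological coefficient of variation was 12.6%. Positions and promoters came from RefSeq on GRCh38.p14 (97.8% of gene IDs matched). The members and lists were chosen with earlier results of these data known. Named genes are the 10 members, SFPQ, the called genes of each list (at most 6), all 11p15 neighbors and the 3 genes most like IRS2. SHC1, GRB2, STC2, PAPPA, M6PR and the IGF2BP genes were named after their values were seen, as was the comparison with the spread within groups. Alternatives were DESeq2's size factors and Wald test, no filter, a replicate block, each library left out, and limma on log2(FPKM + 0.5), with an offset of 0.1, without the filter at a mean of 0.5 FPKM, and after rescaling. The result for 1 gene of the mannose 6-phosphate list is not reported here.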

Additional observations from a re-analysis of the deposited data

How the results depend on the processing

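The fits that each left out a library gave 1500 to 3140 called genes, 2 to 7 called genes of the 10 and 7 to 20 called genes of the signaling lists. The 7 were reached without siPSF replicate 3, where IGF2 and IGFBP2 were called lower and IGFBP3 and IGFBP5 higher beside IGF1R, INSR and IRS2, and the 1500 without siControl replicate 2. IGF1R and IRS2 were called in all 6 of these fits and in all 8 alternatives with every library, and INSR in 4 of 6 and 8 of 8. With limma on rescaled FPKM, where the median log2 fold change of all genes was -0.16, 5 of the 10 genes were called, IGF2R (-0.41) and IGFBP2 among them, and IRS1 turned from 0.08 to -0.068 (adjusted p = 0.56). That scaling called 429 genes higher and 3073 lower, and limma on FPKM as deposited 717 and 1700, beside 1310 and 1628 with edgeR on counts. None of the 17 called genes of the signaling lists changed sign under the alternatives that tested it. The replicate numbers were not used as pairs, because the study's methods state no block. The deviations of same-numbered libraries correlated by -0.03, 0.23 and 0.10, and those of differently numbered ones by -0.29 to 0.18. SiControl replicates 1, 2 and 3 correlated best with siPSF replicates 2, 2 and 1 (0.12, 0.23 and 0.18). With a replicate block 3029 genes, 3 of the 10 genes and 18 of the signaling lists were called. The labels do not say whether a number marks a shared day. With 3 libraries a group and a within-group SD of 0.97 for IGF2 on the log2 scale, the 95% interval of its log2 fold change in the main fit ran from -1.49 to 0.57.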
